A study of Homo sapiens with 8 samples.

Results

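The genes described here are HSF1 and 9 heat shock chaperone genes of the cytosol and mitochondria: HSPA1A, HSPA1B, HSPA8, DNAJB1, HSPH1, HSP90AA1, HSP90AB1, HSPD1 and HSPE1. They were chosen by name, and all 10 were found among the 86369 rows of the count table, where Ensembl identifiers were matched to symbols. The cells were HepG2, an established human hepatocellular carcinoma line, transfected by lipofection with a negative control short interfering RNA (siControl) or with one against NAT10 (siNAT10), and harvested 2 days later. Each group had 4 libraries, and each of the 2 labelled batches holds 2 from either group (replicates 1 and 2 in batch 1, replicates 3 and 4 in batch 2). All cells had been grown in the same serum-containing medium, and no heat treatment is described. Poly(A) RNA was read at its 3' end, a design in which a count is meant to stand for a transcript whatever its length. Levels are given as CPM, the usual depth-scaled count, on library totals corrected by edgeR's TMM factors. The labels do not say whether libraries came from separate cultures, so p-values measure the spread between these libraries, which may be technical. In such bulk RNA, a change in few cells and a smaller change in every cell cannot be told apart, nor can fewer cells of a type and less RNA per cell.

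Heat shock proteins are molecular chaperones, which keep other proteins folded or help them refold. HSF1 is the transcription factor that turns their genes on in heat and other protein-damaging stress. It binds repeats of the block GAA and its reverse complement TTC, called heat shock elements. Proteins of the HSP70 class (HSPA1A, HSPA1B, HSPA8) bind unfolded stretches, DNAJB1 delivers clients to them and stimulates their ATPase, and HSPH1 helps them release nucleotide. HSP90AA1 and HSP90AB1 act later, on kinases, receptors and other clients, while HSPD1 and HSPE1 form the barrel and the lid of the chaperonin inside mitochondria.

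The promoter stretches below are shown because the HSF1 row that was read held no counts, and the blocks HSF1 binds are what these genes are known to share. RefSeq windows of 300 bases (250 before to 50 after a start site, GRCh38.p14) were at hand for 9 of the 10 members, HSF1 being the member without one. They were searched for GAANNTTC, for TTCNNGAA (each reads the same on both strands) and for a longer form of 3 alternating blocks with 2 bases between neighbours, on either strand, which contains both shorter forms. Of 35116 windows in the table, 6.77% hold GAANNTTC, 7.74% hold TTCNNGAA and 0.49% hold the longer form. In each line the stretch is written 5′ to 3′ on the gene's strand, and capitals mark the bases of the GAA and TTC blocks that matched.
DNAJB1, chr19:14518456-14518485, minus strand: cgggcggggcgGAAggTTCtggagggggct
DNAJB1, chr19:14518426-14518455, minus strand: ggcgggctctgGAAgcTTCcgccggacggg
HSP90AA1, chr14:102087104-102087133, minus strand: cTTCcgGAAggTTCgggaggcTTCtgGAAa
HSPA8, chr11:123062171-123062200, minus strand: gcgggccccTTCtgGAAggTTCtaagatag
HSPD1, chr2:197500061-197500090, minus strand: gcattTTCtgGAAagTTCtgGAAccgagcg
HSPA1A, chr6:31815426-31815455, plus strand: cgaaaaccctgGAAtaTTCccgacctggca
HSPA1B, chr6:31827622-31827651, plus strand: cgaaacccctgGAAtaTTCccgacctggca
HSPA6, chr1:161524457-161524486, plus strand: gcggaaaggTTCgcGAAagTTCgcggcggc
HSPA6, an HSP70 gene outside the member list, is shown because it differed between the siRNA groups. The stretches of HSP90AA1, HSPA8, HSPD1 and HSPA6 hold the longer form, and those of DNAJB1, HSPA1A and HSPA1B hold GAANNTTC alone. Of the members, 7 had a match to either short form before at least 1 start site. That of HSP90AB1 (not shown) lay before a start site other than the canonical one. This count is per gene and pools both forms over 15 windows. The percentages above are per window and per form, so they are not on the same basis. The windows of HSPE1 and HSPH1 held none of these letters, and the HSPH1 window belongs to a start site other than that of its canonical transcript. A match describes the sequence and is no evidence that the site is used.

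The 8 libraries held 9731718 to 27977110 counts, and the shallowest pair was siNAT10 in batch 2. NAT10, the targeted RNA acetyltransferase (ENSG00000135372; GRCh38 chromosome 11, 34105617 to 34147670), stood at 39.2 to 77.8 CPM in siControl and at 12.2 to 22.3 CPM in siNAT10 (edgeR quasi-likelihood test, log2 fold change -1.66, adjusted p 2.02e-05). Among 8 hepatocyte markers, 7 had a mean over 1 CPM and APOB was the exception, with counts in 1 library. SERPINA1 was the lowest of the 7, at 1.70 to 13.2 CPM. Their summed level was 9305 to 9771 CPM in siControl and 7455 to 8037 CPM in siNAT10. The markers did not all move with the sum. Mean levels in siControl and siNAT10 were 4411 and 3422 CPM for ALB, 2086 and 1474 for TF, 1668 and 1374 for AFP and 193.9 and 157.1 for TTR. Those of APOA1 were 836.7 and 828.7 CPM, and HNF4A was higher in siNAT10 (356.8 and 375.2). Groups without overlap were seen for 5.4% of all tested genes. Markers of leukocytes (PTPRC and CD3E at 0) summed to at most 3.90 CPM in any library, those of fibroblasts (COL1A2 and COL3A1 at 0) to at most 1.38 CPM, and those of endothelium to at most 0.797 CPM.

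HSF1 and the inducible HSP70 pair could not be followed in this table. HSF1 (ENSG00000185122; GRCh38 chromosome 8, 144291591 to 144314720), HSPA1A (ENSG00000204389; chromosome 6, 31815543 to 31817946) and HSPA1B (ENSG00000204388; chromosome 6, 31827738 to 31830254) were listed at 0 counts in all 8 libraries. For counting error alone, a count of 0 allows up to 0.104 to 0.293 CPM per library, taken as 3 counts. Many rows around these genes were also at or near 0. Within 100 kb of HSPA1A, 18 of 19 other protein-coding genes were at 0 in all 8 libraries, and within 500 kb 68 of 70, among them DDX39B and CLIC1, which most cells use. Within 100 kb of HSF1, 6 of 12 protein-coding neighbours were at 0 and 8 had at most 10 counts over all libraries, including DGAT1. The other 4 were counted, among them BOP1 and MROH1, so the region of HSF1 was not empty. Exons of DGAT1 and of ENSG00000254690, both on the opposite strand, overlap the last 500 bases of the canonical HSF1 transcript. No other member had such an overlap, and its part in the HSF1 zeros was not tested. Over all 20038 protein-coding genes in the table, 28.5% were at 0 and 38.5% had at most 10 counts. Zeros of these genes are therefore given as listed, with no statement on whether the genes were expressed.

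HSPA8, the constitutive HSP70 of the cytosol (ENSG00000109971; GRCh38 chromosome 11, 123057489 to 123063230), had 51 to 127 counts per library. That is 3.96, 4.20, 5.95 and 5.20 CPM in siControl replicates 1 to 4 and 4.71, 3.93, 4.47 and 4.99 CPM in siNAT10. HSPA8 is known as one of the more abundant messages of cultured cells, and its row, with a mean of 4.68 CPM, was here far below the next lowest member, HSPH1 at 148 CPM. Its 17 pseudogene rows held 9 counts in all. Of 6 other messages that cells make in quantity, some were also listed low, B2M with 1 count in its row and RPL3 at 1.95 to 5.77 CPM. Others were not, with means of 4111 CPM for TUBA1B, 2350 for GAPDH and 1121 for ACTB. EEF1A1 lay between, at 47.7 CPM. The HSPA8 values below describe its row as listed, and the cause of its low level was not tested.

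The other 6 members were counted deeply, from 1819 counts (HSPH1, siControl replicate 2) to 32440 counts (HSP90AB1, siControl replicate 1). Their mean levels over all libraries ran from HSP90AB1 at 1063 CPM through HSPE1 at 861, HSP90AA1 at 685.4, DNAJB1 at 515.9 and HSPD1 at 238.5 to HSPH1 at 148 CPM. Neighbours in this order had overlapping ranges over the 8 libraries, from HSP90AB1 and HSPE1 down to HSPD1 and HSPH1, with the exception of DNAJB1 and HSPD1. The order is that of the rows as listed. With B2M and RPL3 listed so low, though GAPDH and ACTB were not, it may differ from the order of the transcripts in the cells. Together the 7 members with counts took 0.301% to 0.397% of a library.

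**Figure D1:**
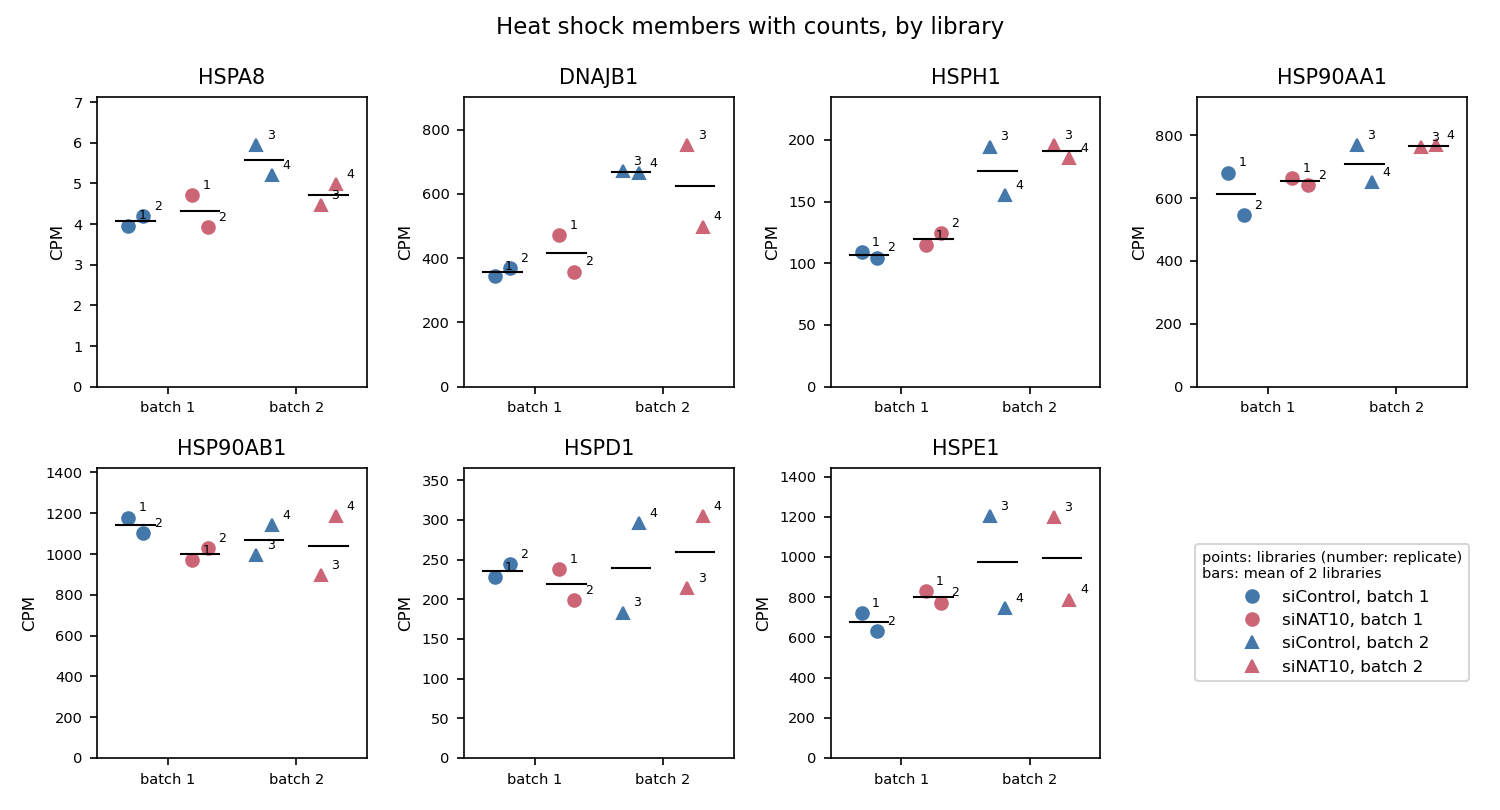
Level in CPM (vertical axes from 0) of the 7 members with counts in each library, by batch (horizontal axis) and siRNA group (colour), with the replicate number beside each point and a bar at the mean of 2 libraries. DNAJB1 and HSPH1 are higher in all 4 libraries of batch 2, and HSPE1 and HSPD1 separate replicate 3 from replicate 4.

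NAT10 knockdown left the measured members close to their control levels. In the fit with batch as a term, 0 of the 7 members with counts were called (edgeR quasi-likelihood test, Benjamini-Hochberg adjusted p under 0.05 over 13840 genes) and 0 had an unadjusted p under 0.05, where 2.28% of all tested genes were called (0.816% higher and 1.46% lower) and 15.7% had an unadjusted p under 0.05. DESeq2 also called 0 of them. Their log2 fold changes ran from -0.11 to 0.14 with a median of 0.06, beside -0.0024 over all tested genes. For every member the siControl and siNAT10 libraries overlapped.

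Among the HSP70 partners, DNAJB1 (ENSG00000132002; GRCh38 chromosome 19, 14514769 to 14560391) stood at 344.1, 368.5, 671 and 664.3 CPM in siControl replicates 1 to 4. In siNAT10 it stood at 470.8, 358.3, 752.4 and 497.7 CPM. The fitted siNAT10 to siControl ratio was 1.04, with a 95% interval of 0.857 to 1.27 (edgeR adjusted p 0.874). The sign differed between batches, with a log2 fold change of 0.22 in batch 1 alone and -0.09 in batch 2 alone. HSPH1 (ENSG00000120694; chromosome 13, 31134973 to 31162388) was at 109.3, 104.6, 194.5 and 155.1 CPM in siControl and at 114.7, 124.2, 196 and 185.4 CPM in siNAT10. Its siNAT10 mean was above its siControl mean in each batch, by 0.16 and 0.13 log2 units, and the ratio of 1.10 had an interval of 0.952 to 1.28 (edgeR adjusted p 0.539). HSPA8 had a ratio of 0.947 with an interval of 0.727 to 1.23 (edgeR adjusted p 0.880).

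The HSP90 genes, the inducible HSP90AA1 and the mostly constitutive HSP90AB1, had fitted changes of opposite sign and neither passed the test. HSP90AA1 (ENSG00000080824; GRCh38 chromosome 14, 102080742 to 102139699) was at 680.9, 546.2, 769.5 and 650.2 CPM in siControl and at 664.2, 642, 762.6 and 767.7 CPM in siNAT10. Its ratio was 1.07, with an interval of 0.917 to 1.25 (edgeR adjusted p 0.717). HSP90AB1 (ENSG00000096384; chromosome 6, 44246166 to 44253888) was at 1179, 1103, 995.9 and 1140 CPM in siControl and at 970.9, 1028, 897 and 1186 CPM in siNAT10, with a ratio of 0.924 and an interval of 0.784 to 1.09 (edgeR adjusted p 0.685). The ratio of HSP90AA1 to HSP90AB1 counts was 0.495 to 0.773 over the siControl libraries and 0.625 to 0.850 over the siNAT10 libraries.

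Among the deeply counted members the mitochondrial chaperonin genes had the widest intervals on the log2 scale, with DNAJB1 close behind. The interval of HSPA8 was wider still. HSPD1 (ENSG00000144381; GRCh38 chromosome 2, 197486584 to 197516737) was at 228.2, 243.9, 183.2 and 295.9 CPM in siControl and at 238.5, 199.2, 214.5 and 304.9 CPM in siNAT10, a ratio of 1.00 with an interval of 0.809 to 1.24 (edgeR adjusted p 0.996). HSPE1 (ENSG00000115541; chromosome 2, 197500140 to 197503449) was at 721.5, 630.3, 1203 and 743.9 CPM in siControl and at 828.8, 772.5, 1199 and 788 CPM in siNAT10. Its ratio was 1.10 with an interval of 0.880 to 1.37 (edgeR adjusted p 0.729). The upper bounds of these intervals put a siNAT10 rise of more than 1.37-fold outside the 95% range for each of the 7 rows, which for HSPA8 holds only for the reads counted there.

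**Figure D2:**
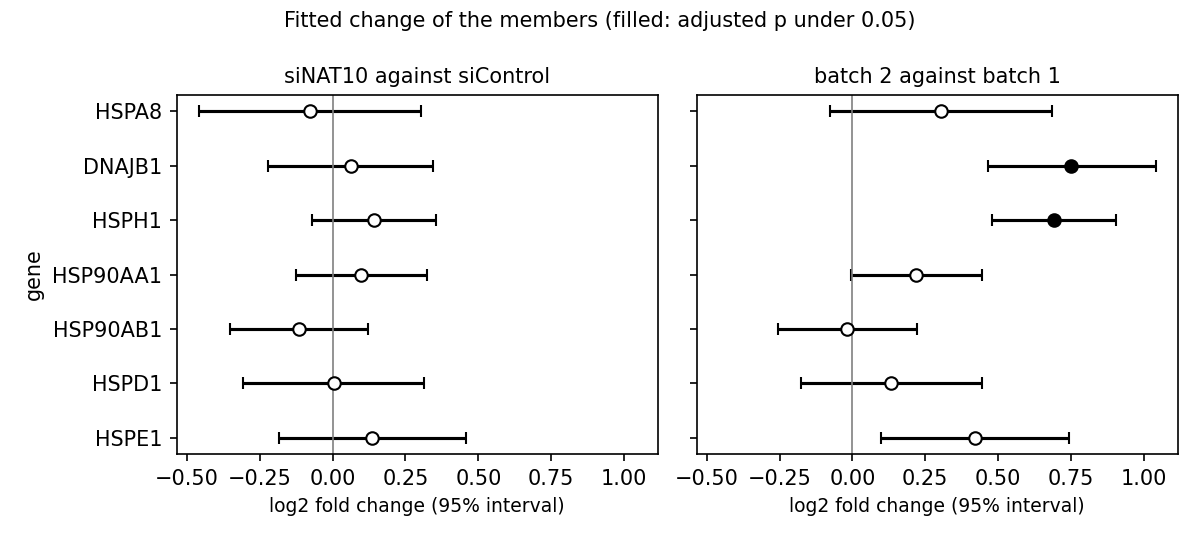
Fitted log2 fold change (horizontal axis) of the 7 members with counts (vertical axis) with its 95% interval, for siNAT10 against siControl on the left and batch 2 against batch 1 on the right; filled points had an adjusted p under 0.05. All intervals on the left span 0, and the filled points on the right are DNAJB1 at 0.75 and HSPH1 at 0.69.

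The batches differed more than the siRNA groups did. DNAJB1 and HSPH1, the co-chaperones that serve HSP70, rose in batch 2 against batch 1, by 1.68-fold and 1.62-fold. In the same fit 2 of 7 members were called, where 25.3% of all tested genes were, so the share called in either direction was near the background. Both members were called higher, where 13% of all tested genes were, a comparison that rests on 2 genes. The median log2 difference of the 7 members was 0.30, beside -5.9e-05 over all tested genes. What differed between the batches besides their label is not given in the labels.

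DNAJB1 went from 385.4 ± 57.8 CPM in batch 1 to 646.3 ± 106.9 CPM in batch 2 (SD, n = 4 in each), a log2 difference of 0.75 ± 0.135 (standard error; edgeR adjusted p 0.000852). The lowest library of batch 2 was siNAT10 replicate 4 at 497.7 CPM, above the highest of batch 1 at 470.8 CPM. Within siControl alone the log2 difference was 0.91 (edgeR adjusted p 0.0037), and within siNAT10 alone it was 0.59 and did not pass (edgeR adjusted p 0.069). HSPH1 went from 113.2 ± 8.42 to 182.7 ± 18.99 CPM (SD, n = 4 in each), a log2 difference of 0.69 ± 0.101 (standard error; edgeR adjusted p 0.000147). It passed within siControl alone at 0.71 (edgeR adjusted p 0.015) and within siNAT10 alone at 0.67 (edgeR adjusted p 0.011). The batches did not overlap for these members, which was also so for 22.7% of all tested genes, 11.4% with batch 2 higher.

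For the remaining members the batches overlapped. HSPE1 differed by 0.42 log2 units with an adjusted p of 0.054 in edgeR, and passed with DESeq2 (adjusted p 0.029). It passed as well with library size alone or no filter on low counts, and in edgeR without siControl replicate 4 or siNAT10 replicate 4. Without siControl replicate 3 the difference was 0.25. Its batch 2 values of 1203 and 1199 CPM came from the replicate 3 libraries, while those of replicate 4, at 743.9 and 788 CPM, lay among the batch 1 values of 630.3 to 828.8 CPM. HSPA8 differed by 0.30 (edgeR adjusted p 0.237), HSP90AA1 by 0.22 (0.142), HSPD1 by 0.13 (0.545) and HSP90AB1 by -0.02 (0.926). The interaction of batch and siRNA, which asks whether the siNAT10 effect differed between batches, was called for 0 of 7 members, where 0% of all tested genes were called and 3.04% had an unadjusted p under 0.05. No member had an unadjusted interaction p under 0.05 in edgeR, the lowest being 0.264 for DNAJB1, and DESeq2 called 0 members.

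HSPD1 and HSPE1 lie head to head on chromosome 2, with 538 bases between the start sites of their canonical transcripts (197499840 and 197500379), and the HSPD1 stretch printed above lies between them. Their proteins assemble into 1 machine, yet their counts moved in opposite directions between the replicates of batch 2. This comparison was chosen after the values had been seen and is a description. HSPE1 was 1.62-fold higher in replicate 3 than in replicate 4 among siControl libraries and 1.52-fold higher among siNAT10 libraries. HSPD1 stood in replicate 3 at 0.620 and 0.704 of its replicate 4 level. The ratio of HSPE1 to HSPD1 counts was 6.57 and 5.59 in the replicate 3 libraries, 2.51 and 2.58 in the replicate 4 libraries, and between 2.58 and 3.88 in batch 1.

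**Figure D3:**
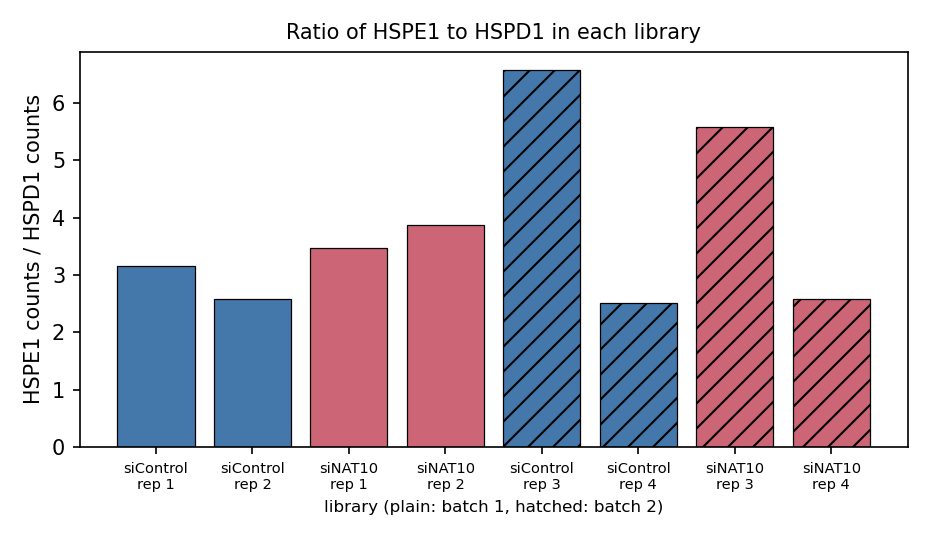
Ratio of HSPE1 to HSPD1 counts (vertical axis from 0) in each of the 8 libraries (horizontal axis), coloured by siRNA group, with batch 2 hatched. Replicate 3 of both groups stands at 6.57 and 5.59, above the other 6 libraries at 2.51 to 3.88.

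Of all tested genes, 4.23% differed by at least 0.5 log2 units between replicates 3 and 4 in the same direction in both siRNA groups, and 0.91% did so between replicates 1 and 2. By direction, 1.76% were at least 0.5 log2 units higher in replicate 3 than in replicate 4 in both siRNA groups, as HSPE1 was, and 2.46% were lower by as much in both, as HSPD1 was. HSP90AB1 was also lower in replicate 3, by 0.20 and 0.40 log2 units. DNAJB1 differed by 0.015 among siControl and 0.60 among siNAT10 libraries, HSPH1 by 0.33 and 0.08, and HSP90AA1 by 0.24 and -0.0097. The spread between libraries of the same group and batch, as a log2 SD, was 0.34 for HSPE1 and 0.32 for HSPD1, above those of 96.2% and 95.4% of the 3434 genes with at least 50 CPM, whose median was 0.15. DNAJB1 had 0.26, and HSP90AA1, HSP90AB1 and HSPH1 lay between 0.13 and 0.16. Replicate 3 was the deeper library in both groups of batch 2, with 22512520 against 14042898 counts in siControl and 12935636 against 9731718 in siNAT10. The canonical transcript of HSPE1 has 557 bases and that of HSPD1 has 2245. Over 616 protein-coding genes with a canonical transcript under 1 kb, the median log2 difference between replicates 3 and 4 was 0.06 in siControl and 0.11 in siNAT10. It was -0.0027 and 0.0415 over 3978 genes of 2 to 4 kb, the class of HSPD1. Over 4301 genes of more than 4 kb it was -0.035 and -0.043. The part of depth and transcript length in the HSPE1 and HSPD1 values was not tested.

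The wider chaperone network was read from 10 lists of 105 distinct genes in all, of which 89 were tested and 7 were at 0 in every library. Between siNAT10 and siControl 2 of these 89 genes were called, or 2.25%, close to the 2.28% of all tested genes. These were HSPA6 and ST13, both higher in siNAT10.

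HSPA6 (ENSG00000173110; GRCh38 chromosome 1, 161524540 to 161526894) encodes an HSP70 that is nearly silent in unstressed cells and strongly induced by heat. It stood at 1.05, 1.09, 0.937 and 1.23 CPM in siControl replicates 1 to 4 and at 5.20, 1.84, 3.22 and 2.15 CPM in siNAT10. Every siNAT10 library was above every siControl library, with siNAT10 replicate 1 highest, and such separation was seen for 5.4% of all tested genes. The counts were few, 17 to 29 per siControl library and 22 to 95 per siNAT10 library. The fitted ratio was 2.87 with a 95% interval of 1.75 to 4.73 (edgeR adjusted p 0.028). The call was lost in edgeR without siControl replicate 1 (adjusted p 0.114), siControl replicate 2 (0.089), siNAT10 replicate 3 (0.078) or siNAT10 replicate 1, where the log2 fold change fell from 1.52 to 1.09 (0.145). Leaving the batch term out ended it too (0.207), as did the use of batch 2 alone, with a log2 fold change of 1.33 (0.626). HSPA7, a neighbouring sequence relative of HSPA6, was listed at 0 in all libraries, and how reads shared between them were counted is not given in the sources used here.

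ST13 (ENSG00000100380; GRCh38 chromosome 22, 40824535 to 40856639) encodes Hip, a cofactor that holds HSP70 in its ADP-bound state. It stood at 95.8, 97.9, 115.3 and 115.7 CPM in siControl and at 156.1, 154.1, 149.7 and 147.3 CPM in siNAT10, again with no overlap. The fitted ratio was 1.44 with an interval of 1.24 to 1.66 (edgeR adjusted p 0.011). The log2 fold change of 0.52 was 0.68 in batch 1 alone (edgeR adjusted p 0.012) and 0.37 in batch 2 alone (0.694). The call was lost without siControl replicate 1 (0.063), siControl replicate 2 (0.054) or siNAT10 replicate 2 (0.061), and without the batch term (0.176).

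**Figure D4:**
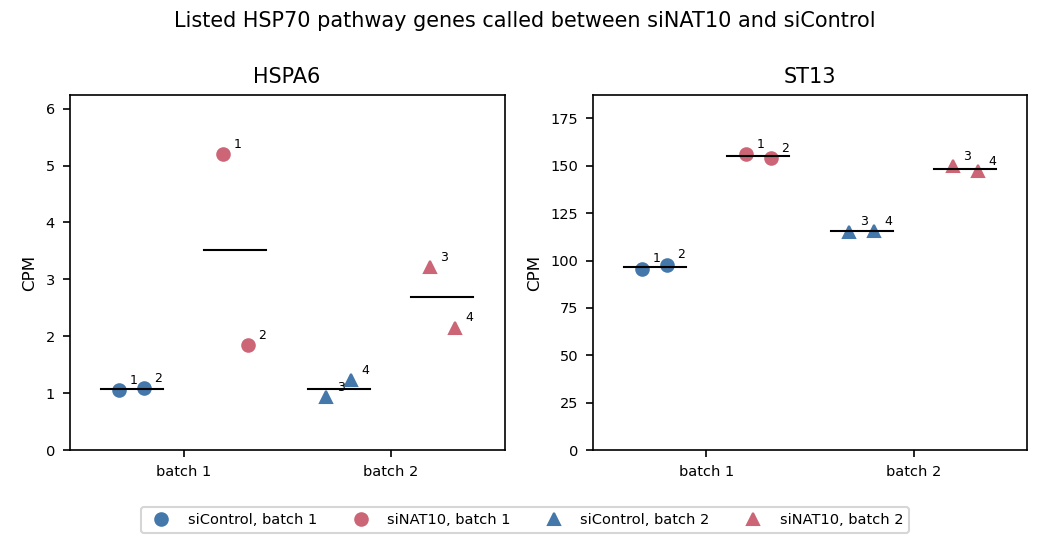
Level in CPM (vertical axes from 0) of HSPA6 and ST13 in each library, by batch (horizontal axis) and siRNA group (colour), with replicate numbers and a bar at the mean of 2 libraries. In both panels the 4 siNAT10 libraries lie above the 4 siControl libraries.

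The rest of the network held no siNAT10 call. Of 18 tested genes known to be induced by HSF1 on heat, HSPA6 was the 1 called, and the median log2 fold change was 0.04. The heat-inducible BAG3 was at -0.02 (edgeR adjusted p 0.968), HSPB1 at 0.09 (0.714) and DNAJA1 at -0.02 (0.964). The HSF1 partner HSF2, a related factor that forms mixed trimers with it, had 0.39 (0.125), the smallest p of its list, and 0 of its 9 tested genes were called. Calls were also 0 of 12 among J-domain co-chaperones, 0 of 15 among HSP90 co-chaperones, 0 of 11 in the TRiC chaperonin and prefoldin, 0 of 5 small heat shock proteins, 0 of 12 mitochondrial chaperones and proteases, and 0 of 6 ER counterparts. The medians of these 6 lists lay between -0.09 and 0.06. The ER counterparts HSPA5 (0.14) and HSP90B1 (0.04) lay within the range of the members.

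Between the batches 20 of the 89 listed genes were called (22.5%, where 25.3% of all tested genes were), 10 higher and 10 lower in batch 2, where 13% of all tested genes were called higher and 12.2% lower. The J-domain list, whose proteins partner HSP70 as DNAJB1 does, had 4 of 12 tested genes higher and 1 lower. DNAJA1 rose by 0.48 log2 units (edgeR adjusted p 0.0027), from 80.8 to 97.4 CPM in the batch 1 libraries to 114.1 to 132.1 CPM in those of batch 2. DNAJB12 rose by 0.57, DNAJC9 by 0.45 and DNAJB2 by 0.32, while DNAJB14 fell by 0.40. The HSP90 co-chaperones had 4 called genes of 15 tested, all lower, among them STIP1 (-0.46), PPP5C (-0.42) and CDC37 (-0.41), of which STIP1 and CDC37 bring HSP70-bound clients and kinases to HSP90. STIP1 went from 280.7 ± 7.43 to 204.2 ± 15.2 CPM (SD, n = 4 in each), without overlap.

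**Figure D5:**
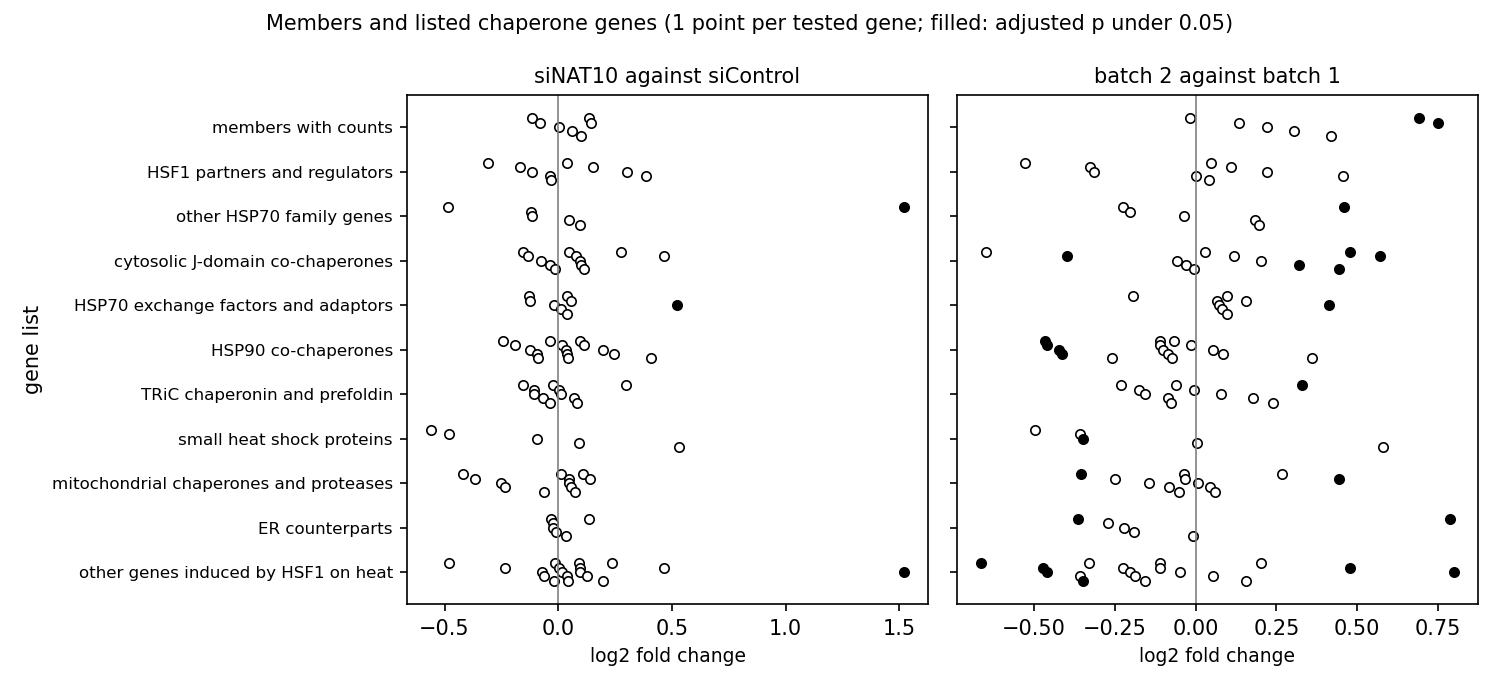
Fitted log2 fold change (horizontal axis) of the members with counts and of each tested gene of the 10 lists (vertical axis), for siNAT10 against siControl on the left and batch 2 against batch 1 on the right; filled points had an adjusted p under 0.05 and some genes stand in more than 1 list. The filled points on the left are HSPA6 and ST13, and those on the right lie on both sides of 0.

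Genes induced by HSF1 on heat did not move one way between the batches, with 2 of 18 called higher and 4 lower, beside 13% and 12.2% of all tested genes, and a median log2 difference of -0.17. DNAJA1 and MRPL18 (0.80, edgeR adjusted p 0.000307) were higher, as the members DNAJB1 and HSPH1 were. Among the lower genes, STIP1 fell by 0.46, DEDD2 by 0.47 and the small heat shock protein HSPB1 by 0.35 (edgeR adjusted p 0.015). Of the mitochondrial list TIMM44 was higher (0.45) and the protease LONP1 lower (-0.36), and of the ER counterparts DNAJB9 was higher (0.79) and DNAJB11 lower (-0.37). BAG1 (0.41), HSPA14 (0.46) and CCT3 (0.33) were the single calls of their lists, all higher, and the HSF1 partner list had 0 of 9.

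Several of these batch calls did not hold in each of the 8 edgeR fits that left out 1 library. Those of DNAJA1, DNAJB12, DNAJC9, BAG1, STIP1, DNAJB9, DNAJB11 and MRPL18 were kept in all 8. The CCT3 call was kept in 1 of 8, that without siNAT10 replicate 4, with adjusted p up to 0.143 in the others. TIMM44 was kept in 2 of 8, those without siControl replicate 3 or siNAT10 replicate 3 (up to 0.116), and its log2 difference was 0.25 among siControl libraries alone. DNAJB2 was kept in 3 of 8, without siNAT10 replicate 1, siControl replicate 3 or siNAT10 replicate 4 (up to 0.156), and PPP5C in 3 of 8, without siNAT10 replicate 1, 3 or 4 (up to 0.136). HSPA14 lost its call without siControl replicate 2 or 3 or siNAT10 replicate 1 (up to 0.070), and CDC37 without siControl replicate 2 or siNAT10 replicate 1 or 4 (up to 0.075). DNAJB14 lost it without siControl replicate 1 or siNAT10 replicate 2 or 3 (up to 0.074), and DEDD2 without siControl replicate 1 or 4 or siNAT10 replicate 2 (up to 0.065). LONP1 lost it without replicate 2 of either group (up to 0.065) and HSPB1 without siNAT10 replicate 2 or 3 (up to 0.065). With no filter on low counts CCT3 (0.054), HSPA14 (0.058) and DNAJB2 (0.075) were not called, and TIMM44 was not called with library size alone (0.062) or after thinning to the smallest library (0.065). Thinning also ended the calls of DNAJB14 (0.063), PPP5C (0.126) and DEDD2 (0.075).

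Genes were ranked by the correlation of their log2 CPM over the 8 libraries with the mean of DNAJB1 and HSPH1. The batch mean had been subtracted from both sides, so the batch rise of these members played no part. DNAJB1 weighed more in the reference, with a log2 SD within group and batch of 0.26 against 0.13 for HSPH1. HSPA1A and HSPA1B were to be part of the reference and were left out, being at 0. Of 8661 genes with at least 8 CPM, those with the highest Pearson r were AATK (0.979), SIRT6 (0.978), IRGQ (0.975), SH2B1 (0.973) and MBD1 (0.973). None is a chaperone gene of the lists. Between batches IRGQ (log2 difference 0.60) and MBD1 (0.44) were called higher and SIRT6 (-0.38) lower. AATK (-0.11) and SH2B1 (-0.08) were not called. The reference was highest in siNAT10 replicates 1 and 3 (0.16 and 0.17 log2 units above the batch mean) and lowest in siNAT10 replicate 4 (-0.17). HSPH1 differed from this, being highest in batch 1 in siNAT10 replicate 2 (124.2 CPM). In batch 2 it was lowest in siControl replicate 4 (155.1 CPM). With 8 libraries and so many genes, such values are a ranking and no test.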

How the data were processed

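The authors deposited 1 table of whole-number read counts per gene. Per the submitters' processing notes, reads were handled with Trim Galore 0.6.10, cutadapt 3.5, STAR 2.7.9a and featureCounts on GRCh38. Strand setting, annotation release and the handling of multi-mapping reads are not given in the sources used here. The kit is named REV in the labels' protocols and FWD in the design text. Identifiers (61458 of 86369) were matched to GENCODE 44 on GRCh38. The older symbol HSPB11 was matched through RefSeq.

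Genes kept by filterByExpr (minimum count 10), 13840 in all, were tested with edgeR 4.0.16 in R 4.3.3 (TMM scaling, quasi-likelihood F test, batch and siRNA as terms, Benjamini-Hochberg over all tested genes). Intervals are 95% and standard errors come from the F statistic. DESeq2 1.42.0, 2 other scalings, 2 other filters, thinning to 9731718 counts, added pseudogene rows, left-out libraries and other designs were alternatives. The procedure was tested on simulated data. Depth statements cover counting error only.

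All 10 members were named by rule. So were list genes called between siRNA groups, and up to 3 called per list and direction between batches (at least 8 CPM). Otherwise the smallest p of a list was used, and the 5 genes with the highest Pearson r were named too. Further list genes, among them BAG3, EEF1A1 and HSPA5, were named after their values were seen. So were B2M, RPL3, TUBA1B, GAPDH, ACTB, DDX39B, CLIC1, DGAT1, BOP1, MROH1 and HSPA7. Results of some list genes are not reported here. Members and lists were chosen with earlier results of these data known. Same-numbered libraries of the siRNA groups correlated across genes in their deviations from group means at 0.44, 0.43, 0.51 and 0.42. The values reported come from the fit without a replicate block, and the block was run as an alternative. These correlations include the batch difference, and with group means taken out separately in each batch they were -0.08 in batch 1 and 0.21 in batch 2.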

Additional observations from a re-analysis of the deposited data

Results flagged for a closer look

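In 14 sets of 4 values (7 members, each in siControl and in siNAT10), 1 held a library far from the others, where chance flags about 1 in 20. HSPE1 stood at 1199 CPM in siNAT10 replicate 3, against 772.5 to 828.8 CPM in the other siNAT10 libraries, a gap of 0.868 of the range. The siControl library with the same replicate number was at 1203 CPM.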

How the results depend on the processing

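The count of 0 members called between siNAT10 and siControl held in every alternative run, with the replicate block giving 0 as well, and with 0 in each fit that left out 1 library. With the replicate block HSPA6 (log2 fold change 1.48, edgeR adjusted p 0.017) and ST13 (0.52, 0.010) stayed called, and the block changed no call of a member. The 2 members called between batches were 2 to 3 without single libraries and 1 among siNAT10 libraries alone. HSPD1 was at -0.0039 with no filter on low counts, -0.0023 after thinning and -0.107 in batch 1 alone, HSPA8 at 0.078 in batch 1 alone, and DNAJB1 at -0.094 in batch 2 alone. HSP90AB1 was at 0.0565 between batches among siNAT10 libraries alone. Without single libraries the siNAT10 log2 fold change ran from -0.13 to 0.13 for HSPD1, -0.16 to 0.0026 for HSPA8 and -0.0535 to 0.204 for DNAJB1, and the batch difference of HSP90AB1 from -0.117 to 0.0502. NAT10 was at -1.58 in batch 2 alone (edgeR adjusted p 0.086) and between -1.79 and -1.52 without single libraries. Over all genes, 315 were called between siRNA groups, 601 with DESeq2, 595 with no filter, 15 without the batch term, 173 in batch 1 alone, 0 in batch 2 alone (edgeR, 946 with an unadjusted p under 0.05) and 75 to 286 without single libraries, the lowest without siNAT10 replicate 2. Between batches 3500 were called, 1314 among siControl and 1188 among siNAT10 libraries alone, and 2531 to 3627 without single libraries. The interaction was called for 0 genes in edgeR (421 with an unadjusted p under 0.05), 1 with DESeq2, 15 with no filter and 0 to 2 without single libraries. The causes were not tested. No paired analysis was possible for the batches because each replicate number lies in 1 batch.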
